A study of Mus musculus with 9 samples.

Results

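Irf4, Irf8, Spi1 and Foxo1 encode transcription factors of the pro-B to pre-B transition, and the CTCF and cohesin peaks around these 4 genes were described in 5 ChIP-seq peak lists of mouse lymphocyte progenitors. Their peaks were those that overlapped the gene body or 100 kb on either side of it by at least 1 bp in the mm9 assembly. The rule used position only and no peak score. It gave 258 of the 190262 peaks in the 5 lists, which merged into 109 of 83461 sites, around 4 of 22367 annotated protein-coding genes.

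The study mapped CTCF and cohesin at the antigen receptor loci of B and T lineage progenitors, with Rad21 as the cohesin subunit that was precipitated. All 5 libraries came from C57BL/6 mice, and in every group the RAG recombinase was missing. CTCF and Rad21 in pre-B cells were both measured in bone marrow of RAG-/-µ+ mice of 6 to 14 weeks, whose pre-B cells develop through a rearranged IgM transgene, and both lists were called against the same input. CTCF was also measured in pro-B cells of RAG1-/- mice of 6 to 14 weeks after 7 days of culture with IL7. Rad21 was measured in thymocytes of mice of 4 to 8 weeks, in DN (CD4-CD8-) cells of Rag1-/- mice and in DP (CD4+CD8+) cells of Rag1-/- mice that carry a rearranged TCRb transgene. Normal rearrangement is absent from all of these cells, and the pre-B and DP stages were reached through a transgene.

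Each antibody and cell type had 1 library, so no spread between animals could be measured and no test between cell types was made. The CTCF lists held 42250 peaks for pre-B cells and 71080 for IL7-cultured pro-B cells, and the Rad21 lists held 30488, 9701 and 36743 for pre-B, DN and DP cells. The score of a peak grows with sequencing depth, so scores were compared only within a list, as the rank of a peak: the percent of peaks in the same list with a lower score. A site without a peak is one that was not called, and the DN list was the shortest, so an absent DN call says least. Intervals of shares are exact Clopper-Pearson intervals at 95% and cover counting error only. The peak lists hold no expression values, so the cell types could not be checked against marker genes.

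CTCF is a zinc finger protein that binds a directional DNA motif, and cohesin is a ring-shaped complex that extrudes chromatin loops until it meets bound CTCF. Loops form most often between CTCF motifs that point toward each other. In B cell development, IRF4 and IRF8 act downstream of the pre-BCR to end proliferation and open the Igκ locus, often bound together with PU.1, the product of Spi1, or its relative Spi-B at composite elements. FOXO1 is a forkhead factor that is held outside the nucleus by PI3K signalling and that activates Rag1 and Rag2 when this signalling falls. In thymocytes Spi1 is shut off as cells commit to the T lineage, and FOXO1 remains in use.

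The genes lie on the plus strand at chr13:30841095-30858796 (Irf4), chr8:123260258-123280594 (Irf8), chr2:90922547-90955913 (Spi1, named Sfpi1 in the annotation) and chr3:52072259-52154031 (Foxo1). The annotated start of Spi1 is 13706 bp upstream of the start of its CCDS transcript, from which distances to its enhancers are usually counted, so both starts are given below. Other distances are from the annotated start to the midpoint of a peak, with negative values upstream.

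Sequences under CTCF sites that flank or lie within the 4 genes are shown first, because the strand of a match was used to read the direction of a site. The 12-base CTCF consensus found de novo by HOMER in the study was searched on both strands with at most 2 mismatches, and capitals mark the matching bases. Each line is read on the strand of the match, and plus strand matches were read as pointing toward lower coordinates. None of these 40-base stretches lies in a UTR.
Irf4, 32.4 kb upstream, chr13:30808704-30808743, plus strand, intergenic: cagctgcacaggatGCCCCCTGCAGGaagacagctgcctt
Irf4, 6.4 kb inside the gene, chr13:30847523-30847562, plus strand, intron: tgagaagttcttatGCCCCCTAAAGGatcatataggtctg
Irf8, 57.7 kb upstream, chr8:123202496-123202535, minus strand, intergenic: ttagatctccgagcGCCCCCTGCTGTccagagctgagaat
Irf8, 60.1 kb downstream of the start, chr8:123320340-123320379, plus strand, intergenic: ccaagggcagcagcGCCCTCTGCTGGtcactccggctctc
Spi1, 11.7 kb upstream, chr2:90910739-90910778, minus strand, intergenic: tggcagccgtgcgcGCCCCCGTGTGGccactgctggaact
Spi1, 19.2 kb inside the gene, chr2:90941728-90941767, plus strand, intron: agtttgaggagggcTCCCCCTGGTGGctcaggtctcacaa
Foxo1, 10.5 kb upstream, chr3:52061744-52061783, minus strand, intergenic: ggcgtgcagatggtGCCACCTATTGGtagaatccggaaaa
Foxo1, 132.6 kb downstream of the start, chr3:52204537-52204576, plus strand, intergenic: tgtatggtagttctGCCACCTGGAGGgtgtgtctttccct

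Irf8, Spi1 and Foxo1 had more CTCF and Rad21 peaks than most genes, including 5 DN Rad21 peaks each. Irf4 had many Rad21 peaks in pre-B and DP cells but few pre-B CTCF peaks, and no DN Rad21 peak. Irf4 held 5 pre-B CTCF, 13 IL7 pro-B CTCF, 13 pre-B Rad21, 0 DN Rad21 and 17 DP Rad21 peaks. The same counts were 16, 23, 15, 5 and 13 at Irf8, 12, 18, 13, 5 and 12 at Spi1, and 15, 25, 16, 5 and 17 at Foxo1. The median over all protein-coding genes was 7, 12, 5, 1 and 5 in that order. For pre-B Rad21, 90.7% of genes had fewer peaks than Irf4 or Spi1, 94.9% had fewer than Irf8 and 96.2% had fewer than Foxo1. For pre-B CTCF, 31.9% of genes had fewer than Irf4, against 88.6% for Irf8, 73.6% for Spi1 and 85.6% for Foxo1. With 200 kb flanks Irf4 had 15 pre-B CTCF and 2 DN Rad21 peaks, so its low counts hold for the 100 kb window. A DN count of 0 is common, since 30.1% of all genes had no DN peak in their window, while 92.5% had fewer than the 5 seen at the other members. The windows differ in length, from 218 kb at Irf4 to 282 kb at Foxo1. Per 100 kb of window, the pre-B Rad21 counts were 5.97, 6.81, 5.57 and 5.68 at Irf4, Irf8, Spi1 and Foxo1, above those of 93%, 95.8%, 91% and 91.5% of genes.

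**Figure D1:**
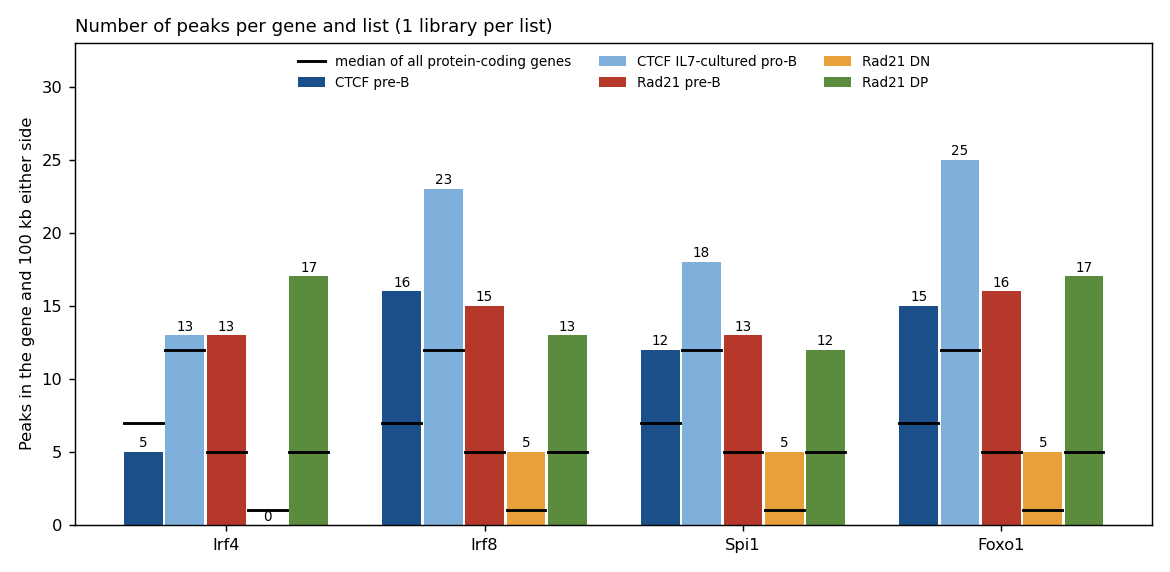
Number of peaks (vertical axis) that overlap the gene body or 100 kb on either side for Irf4, Irf8, Spi1 and Foxo1, with 1 bar for each of the 5 lists and a black line at the median of 22367 protein-coding genes. Irf4 sits below the median for pre-B CTCF with 5 peaks and has 0 DN Rad21 peaks, while its 13 pre-B and 17 DP Rad21 peaks are above the median of 5.

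The pre-B peaks at Irf4 also had low ranks. The 5 pre-B CTCF peaks at Irf4 ranked between 4.61% and 24.5%, with a median of 22.3%, so none reached the upper part of the list. At the other genes the median rank of pre-B CTCF peaks was 58.3% (Irf8), 60.3% (Spi1) and 49.3% (Foxo1), and the highest was 97.8%, 98.8% and 82.7%. For pre-B Rad21 the median rank was 34.4% at Irf4, 57.4% at Irf8, 59% at Spi1 and 69.7% at Foxo1. At Irf4 the DP Rad21 peaks had a median rank of 25.6% and a highest of 78.6%, with 5 of 17 in the top 50%, and the IL7 pro-B CTCF peaks had a median of 12.2% and a highest of 52.7%, with 2 of 13 in the top 50%. Peaks in the top 10% of the pre-B Rad21 list numbered 0 at Irf4, 5 at Irf8, 3 at Spi1 and 3 at Foxo1. The 15 DN peaks at the members had a median rank of 80.3%, with 12 above 50%, and the lowest were 1.3% at Foxo1 and 4.21% at Spi1.

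**Figure D2:**
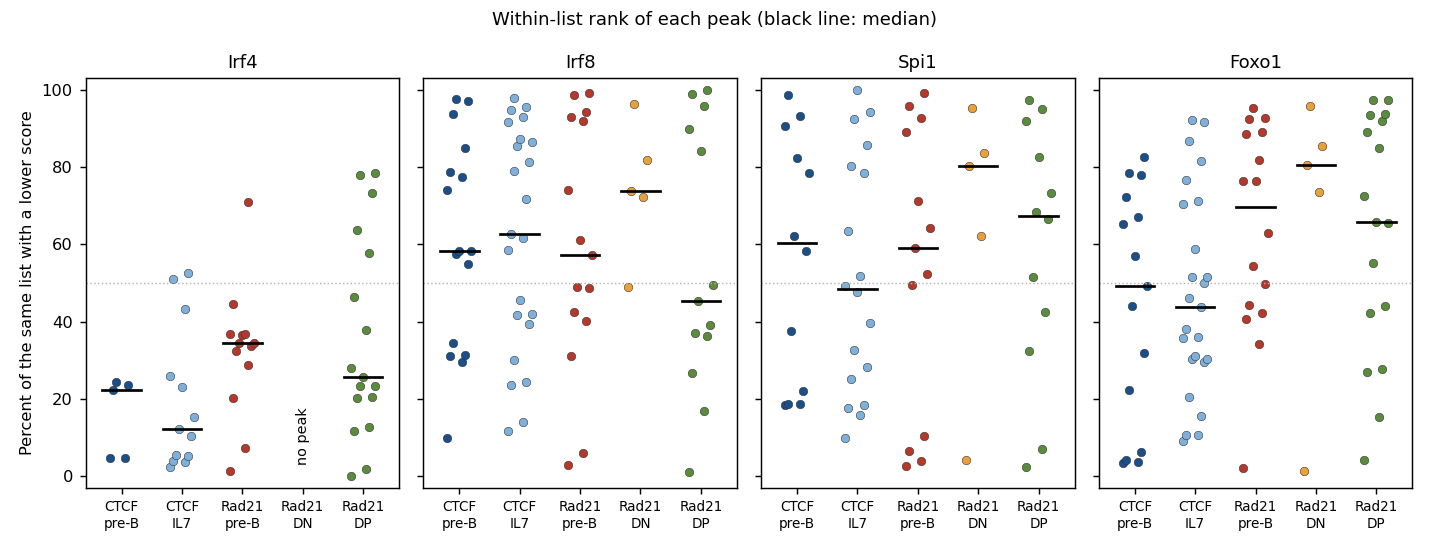
Rank of each peak (vertical axis, percent of the same list with a lower score) for the 4 genes and 5 lists, with 1 point for each peak and a black line at the median. All pre-B CTCF peaks of Irf4 lie at or below 24.5%, whereas Irf8 and Spi1 each have peaks above 97% in pre-B lists.

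IRF4 is the factor that drives light chain rearrangement and, later, plasma cell differentiation, and its gene lies between Dusp22, a phosphatase gene, and Exoc2, a gene of the exocyst. The strongest pre-B Rad21 peak of the Irf4 window was at its promoter, at chr13:30840800-30843739, with a score of 362.35 and a rank of 71%. It was 2940 bp wide, wider than 99.9% of pre-B Rad21 peaks, and covered the 5′ UTR and the sequence after it. No pre-B CTCF peak overlapped it, and the IL7 pro-B CTCF peak within it was 456 bp wide and ranked 15.3%. In DP cells the Rad21 peak at the Irf4 start had a score of 57.8 and a rank of 0.0708%, close to the lowest score of that list. The Irf4 promoter was therefore called in pre-B and DP cells but stood far apart in rank between these lists.

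Inside Irf4, a site at 6.4 kb was called for Rad21 in pre-B cells only, at 34.4%, with CTCF peaks at 4.69% in pre-B and 2.45% in IL7-cultured pro-B cells. Farther inside, Rad21 peaks in the introns at 11.4 kb and 13.1 kb ranked 77.9% and 78.6% in the DP list, where they were the strongest of the window. The pre-B Rad21 peaks over the same sites ranked 36.9% and 36.5%. The site at 13.1 kb also held pre-B CTCF (24.5%) and IL7 pro-B CTCF (52.7%), while the site at 11.4 kb had only a weak IL7 pro-B CTCF peak at 3.9%. Downstream of the gene, a site 37.2 kb from the start ranked 73.3% in DP cells and 36.7% in pre-B cells, with a pre-B CTCF peak at 4.61%. With each Rad21 list limited to its 9701 highest scores, the length of the DN list, 3 of the 23 merged Rad21 sites of Irf4 were left: the promoter in pre-B cells and both intronic sites in DP cells.

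The share of pre-B Rad21 peaks that overlapped pre-B CTCF was lowest at Irf4 in the 100 kb windows. Of 13 pre-B Rad21 peaks, 4 overlapped a pre-B CTCF peak, or 30.8% (9.09 to 61.4), against 88.1% of all pre-B Rad21 peaks. At Irf4 it was 50% with 50 kb flanks, 48.1% with 200 kb flanks and 10% with scores of at least 100. With both lists limited to the length of the shorter it was 0%, because no pre-B CTCF peak of Irf4 was then left. The share was 73.3% at Irf8 (11 of 15), 69.2% at Spi1 (9 of 13) and 68.8% at Foxo1 (11 of 16), and 61.4% (47.6 to 74) over the 4 windows. Genome-wide, 92.4% of pre-B Rad21 peaks overlapped a CTCF peak of at least 1 B lineage list and 7.62% did not, whereas 6 of the 13 at Irf4, or 46.2%, did not. In the DP list 69.2% overlapped such a peak and 30.8% did not, whereas 11 of 17 at Irf4, or 64.7%, did not. CTCF in DP cells was not measured here. The pre-B Rad21 peaks at Irf4 without CTCF had a median rank of 30.5% and those with CTCF 36.7%, so both kinds were in the lower part of the list. All 15 DN Rad21 peaks at the other 3 genes overlapped a CTCF peak of a B lineage list, as did 98.4% of the whole DN list.

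IRF8 acts with IRF4 in pre-B cells and is also a regulator of dendritic cells and monocytes, and its gene lay between strong sites upstream and downstream. Upstream, 3 sites at 57.7, 55.8 and 52.5 kb before the start were called in all 5 lists. The site at 52.5 kb was the strongest of these in pre-B cells, with ranks of 97.8% for CTCF and 98.8% for Rad21, and ranked 81.8% in DN and 89.9% in DP cells. Downstream, sites at 60.5 and 64.1 kb were called in all 5 lists. The site at 60.5 kb ranked 93.8% for pre-B CTCF and 99.1%, 96.4% and 99.9% for Rad21 in pre-B, DN and DP cells, where its score of 3100 was 1 of 28 tied at that value. These 5 sites stayed called in all 3 Rad21 lists when the lists were limited to equal length. A further CTCF site at 92.2 kb ranked 97.2% in pre-B and 97.9% in IL7-cultured cells, but its Rad21 peaks ranked 74.1% in pre-B and 45.3% in DP cells and none was called in DN cells.

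Between these flanks the Irf8 gene had no CTCF peak in its body in either list, and 1 pre-B and 2 DP Rad21 peaks. Genome-wide, 48.1% of protein-coding genes had a pre-B CTCF peak in the body and 59.2% an IL7 pro-B CTCF peak. The Irf8 promoter was called only in DP cells, with a Rad21 peak at chr8:123259761-123260355 that ranked 37.2%. In the body, the pre-B Rad21 peak lay 10.9 kb from the start (57.4%) and the DP peak lay 15.7 kb from the start (26.6%), and neither was called in the other list or overlapped CTCF. A cluster 11 to 13 kb upstream held pre-B CTCF peaks at 31.4% and 57.6% and pre-B Rad21 peaks at 31% and 40.3%, with IL7 pro-B CTCF peaks at 62.8% and 85.5%, while the DP Rad21 peak there ranked 0.983%.

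Enhancers of Irf8 have been placed about 50 kb upstream and 32, 41 and 56 kb downstream of its start, and a window from 2 kb before to 2 kb after each was searched. The windows 32, 41 and 56 kb downstream held no peak of any list. The strong site at 60.5 kb began between 1465 and 1816 bp beyond the last of these windows. The window 50 kb upstream held a pre-B Rad21 peak at chr8:123209685-123210606 that ranked 48.9% and an IL7 pro-B CTCF peak that ranked 13.9%, with no pre-B CTCF, DN or DP peak. The strong site at 52.5 kb ended 131 bp before this window for pre-B CTCF, 154 bp before it for DP Rad21 and 265 bp before it for DN Rad21. Cohesin was thus called next to this window in all 3 Rad21 lists and within it only in pre-B cells. The enhancer position is approximate, so this difference depends on where the window ends. The pre-B peak at this position did not rank within the 9701 highest scores.

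Spi1 encodes PU.1, which is needed in myeloid and early B cells, and it was the only member with sites called in all 5 lists inside its body. Sites called in all 5 lists lay 21.1 kb and 11.8 kb upstream, 19.2 kb and 32.7 kb inside the gene, and 112.3 kb downstream of the start in Nr1h3. The site at 11.8 kb upstream, at the 5′ end of Slc39a13, a zinc transporter gene, was the strongest of the 4 windows by CTCF. It ranked 98.8% for pre-B CTCF, 99.9% for IL7 pro-B CTCF, and 99.3%, 95.3% and 97.3% for Rad21 in pre-B, DN and DP cells. The intronic site at 19.2 kb ranked 90.8% for pre-B CTCF and 95.8%, 62.3% and 92.1% for Rad21 in pre-B, DN and DP cells. The site in the 3′ UTR ranked lower in pre-B Rad21 (64.3%) than in DN (83.7%) or DP (82.6%). Of these 5 sites, 3 remained called in all 3 Rad21 lists of equal length. The site at 16.7 kb upstream, in sequence shared by Psmc3 and Slc39a13, ranked 93.3% for pre-B CTCF, 89% for pre-B Rad21 and 73.4% for DP Rad21 and was not called in DN cells.

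Both starts of Spi1 had pre-B Rad21 and IL7 pro-B CTCF peaks, and neither had a DN or DP Rad21 peak. At the annotated start, pre-B CTCF at chr2:90923001-90924070 ranked 62.2%, pre-B Rad21 at chr2:90922780-90924097 ranked 49.4% and IL7 pro-B CTCF ranked 51.8%. At the start of the CCDS transcript, pre-B Rad21 at chr2:90936594-90938364 ranked 52.4% and was wider than 99.3% of its list, and IL7 pro-B CTCF ranked 18.4%, with no pre-B CTCF peak. The nearest thymocyte peaks were those of the site at 11.8 kb upstream and of the intronic site at 19.2 kb. Both pre-B Rad21 peaks fell outside the 9701 highest scores of their list, so at the length of the DN list neither start was called in any Rad21 list.

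The upstream regulatory element of Spi1, a PU.1-bound enhancer about 14 kb before the start, falls at different places by these starts. Counted from the CCDS start, a window from 16 to 12 kb upstream, chr2:90920253-90924253, contains the peaks at the annotated start: pre-B CTCF, IL7 pro-B CTCF and pre-B Rad21. DN and DP Rad21 were not called in it, and their nearest peaks ended 9151 bp and 9093 bp away. Counted from the annotated start, the window touches the site at 11.8 kb upstream, which was called in all 5 lists. The choice of start thus decides whether the element was called in thymocytes, and the CCDS start was brought in once the peaks had been seen.

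FOXO1 is the forkhead factor that induces the RAG genes, and its gene had most bound sites upstream, a cluster far behind its 3′ end and few between the promoter and that cluster. Of 15 pre-B CTCF peaks, 13 lay upstream, 0 in the gene body and 2 downstream. Sites called in all 5 lists were those 72, 25.8, 14.2, 10.4 and 5.6 kb upstream, and they stayed called in all 3 Rad21 lists of equal length. The site at 10.4 kb ranked 77.9% for pre-B CTCF and 95.3%, 85.4% and 97.4% for Rad21 in pre-B, DN and DP cells. The site at 5.6 kb ranked 78.6% for pre-B CTCF and 92.4%, 95.8% and 97.5% for Rad21. The site at 14.2 kb had equal ranks of 89.2% in pre-B and DP cells and a rank of 1.3% in DN cells, near the lowest score of that list. In pre-B cells the rank of Rad21 was above that of CTCF at 4 of these 5 sites, and at the site at 72 kb the ranks were 82% and 82.7%. Rad21 also ranked above CTCF at every Irf8 site called in all 5 lists. It did so at all such Spi1 sites except that at 32.7 kb (64.3% for Rad21, 78.4% for CTCF). Such sites were picked as called in every Rad21 list, and the CTCF and Rad21 lists differ in length. The share over all sites was not computed.

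The Foxo1 promoter differed in rank between pre-B and DP cells in the opposite direction to that of Irf4. In DP cells a Rad21 peak of 3066 bp, chr3:52071214-52074279, wider than 99.9% of its list, ranked 93.9%. In pre-B cells separate Rad21 peaks around the start, centred 1 kb before and 1.2 and 1.8 kb behind it, ranked 34.3%, 40.6% and 49.7%. There was no pre-B CTCF peak at the promoter, and the IL7 pro-B CTCF peaks there ranked 8.99% and 46.2%. DN Rad21 was not called. At equal list lengths the promoter was called in DP cells only.

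Behind Foxo1, Rad21 and CTCF peaks lay at 128.9 and 132.6 kb from the start and at a further site at 176.1 kb, all intergenic. DP Rad21 alone was called at 143.3 and 154.7 kb, with ranks of 44% and 4.06%, and at chr3:52173042-52173556, closer to the gene, with a rank of 55.3%. The site at 132.6 kb held pre-B CTCF at 57.1%, pre-B Rad21 at 76.4% and DP Rad21 at 65.5%. The site at 128.9 kb ranked 63% in pre-B and 85% in DP cells. The site at 176.1 kb ranked 88.6% for pre-B Rad21 over 1607 bp and 65.7% for DP Rad21, with an IL7 pro-B CTCF peak at 30.3% and no pre-B CTCF peak. None of these sites was called in DN cells, and at equal list lengths those at 132.6 and 176.1 kb were called in pre-B cells only and the one at 128.9 kb in DP cells only. Within the gene, the only peak beyond those at the promoter was a DP Rad21 peak 54.8 kb from the start, at 27%.

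**Figure D3:**
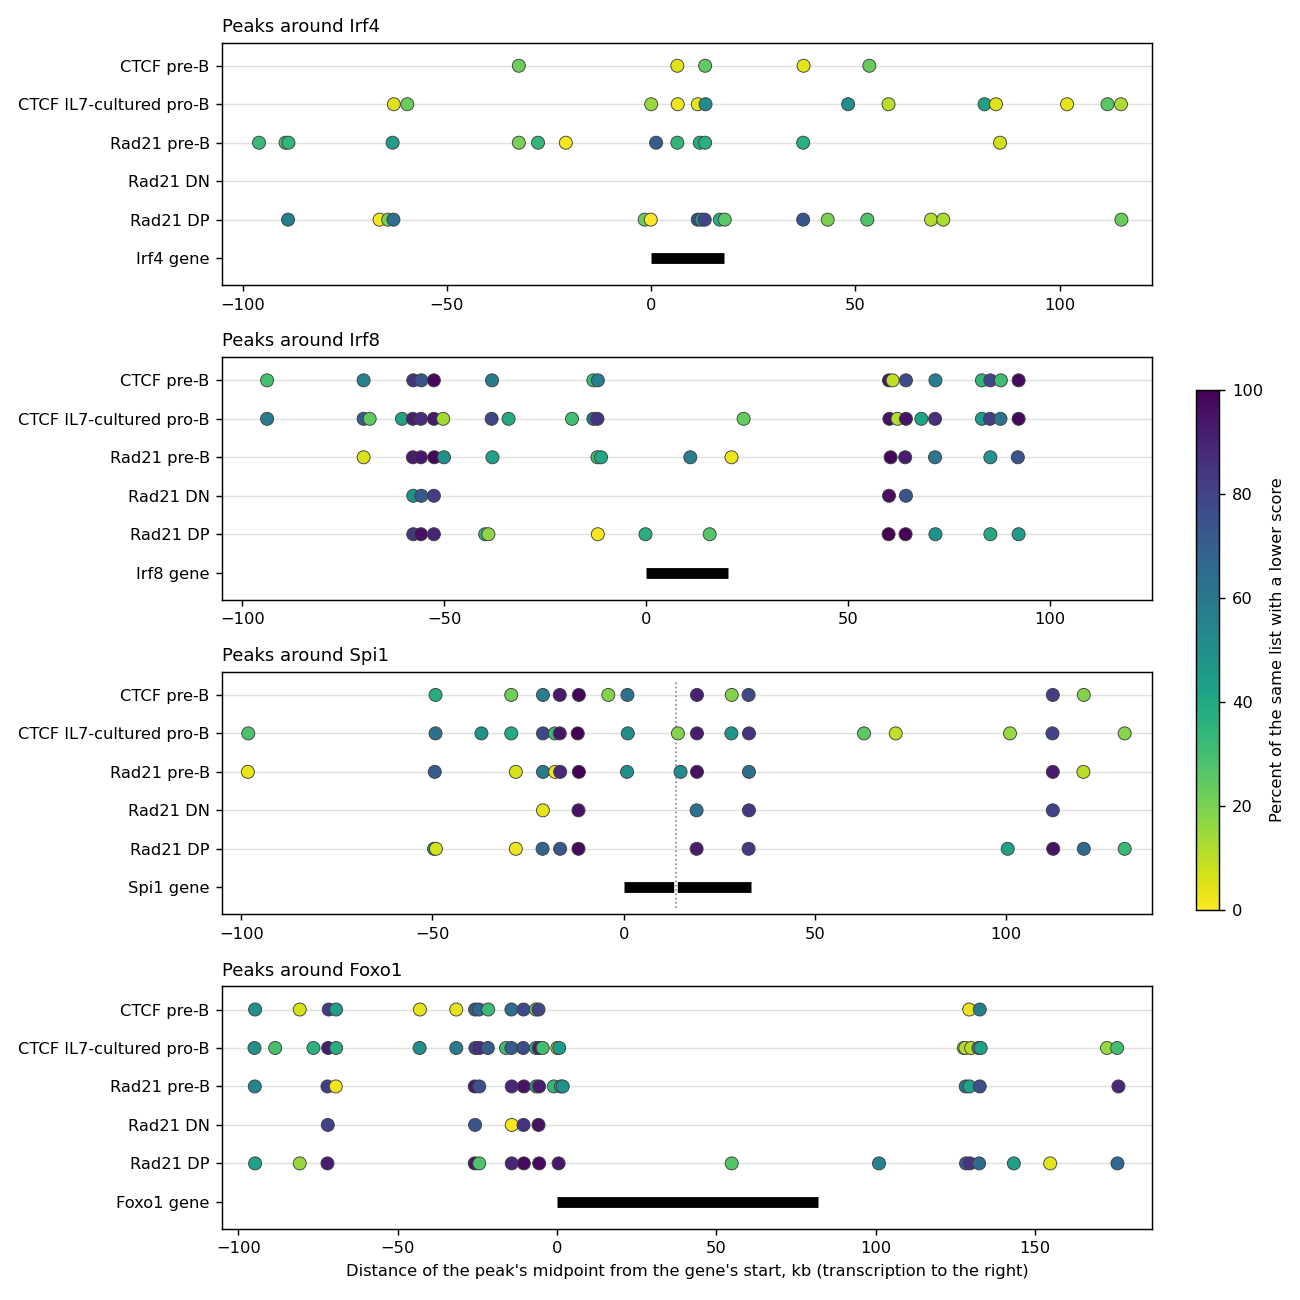
Position of every peak of the 5 lists around each gene, with the distance of the peak midpoint from the annotated gene start in kb on the horizontal axis and 1 row for each list. Colour gives the rank in the same list, the black bar is the gene, and the dotted line at Spi1 is the CCDS start. Columns of points that pass through all 5 rows, most of them dark, flank Irf8, lie before, within and behind Spi1 and lie before Foxo1, and Irf4 has none. The DN points 21.1 kb before Spi1 and 14.2 kb before Foxo1 are low in rank, at 4.21% and 1.3%.

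Over the 4 promoters, taken as 1 kb on either side of the annotated start, pre-B Rad21 was called at 3 (Irf4, Spi1 and Foxo1), against 16.9% of protein-coding genes. DP Rad21 was called at 3 (Irf4, Irf8 and Foxo1), against 29.5%, and DN Rad21 at 0, against 3%. Pre-B CTCF was called only at that of Spi1, against 21.9%, and IL7 pro-B CTCF at 3 (Irf4, Spi1 and Foxo1), against 33.1%. With the CCDS start of Spi1 in place of its annotated start, pre-B CTCF was called at none of the 4 promoters. The pre-B CTCF peak at the annotated start lies in the window of the upstream regulatory element counted from the CCDS start. In gene bodies pre-B Rad21 was called in all 4 genes, against 39.7%, DP Rad21 in all 4, against 44.8%, and DN Rad21 only in Spi1, against 15.9%. The bodies of 4 genes are too few for more than this description.

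Rad21 calls were compared between pre-B, DN and DP cells over 75 merged sites. Of these, 15 were called in all 3 cell types, or 20% (11.6 to 30.8), against 18.7% of 46478 sites genome-wide. A further 20 were called in pre-B and DP only, or 26.7% against 25.1%, 19 in pre-B only, or 25.3% (16 to 36.7) against 20.6%, and 21 in DP only, or 28% against 33.6%. The remaining patterns, DN only, pre-B and DN only, and DN and DP only, were not seen and made up 0.31%, 0.831% and 0.94% of sites genome-wide. The shares over the 4 windows together thus lay near those of the genome. Over all 5 lists, 15 of 109 merged sites were called in every list, or 13.8% (7.91 to 21.7), against 10.3%. All 15 sites called in all 3 cell types overlapped pre-B CTCF, against 99.5% of such sites genome-wide. Of the 21 sites called only in DP cells, 18 overlapped neither CTCF list, against 65.7% of such sites. Of the 19 sites called only in pre-B cells, 11 overlapped a CTCF peak of either list, against 85.4%, and 5 of the 8 that did not were at Irf4.

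The 4 genes differed in these calls. Irf4 had 0 of 23 sites in all 3 cell types, which allows a share of up to 14.8% by the exact interval, and 7 in pre-B only and 10 in DP only. Irf8, Spi1 and Foxo1 had 5 of 19, 5 of 15 and 5 of 18 sites in all 3 cell types. Sites called only in pre-B cells numbered 6 at Irf8, 4 at Spi1 and 2 at Foxo1, and sites called only in DP cells numbered 4, 2 and 5. At equal list lengths 26 sites remained, of which 13 were called in all 3 cell types, or 50% (29.9 to 70.1) against 33.2%, and 7 in pre-B only, or 26.9% against 14.8%. DP only made up 15.4% against 15.6%, DN only and DN and DP only 3.85% each against 13% and 7.9%, and the patterns of pre-B with DP only and of pre-B with DN only 0% against 6.5% and 8.94%. The 7 were the Irf4 promoter, the Irf8 site at 92.1 kb, the Spi1 sites at 49.4 and 16.6 kb upstream, and the Foxo1 sites at 24.4 kb upstream and at 132.6 and 176.1 kb. All except the Irf4 promoter and the Foxo1 site at 176.1 kb overlapped pre-B CTCF, and all 7 were present in the full DP list at lower ranks. All 15 DN peaks overlapped a pre-B Rad21 peak, against 93.9% of the DN list, as did 38 of 59 DP peaks, or 64.4%, against 56.3% of the DP list. Among the 35 merged sites called in pre-B and DP cells, 17 ranked higher in the pre-B list, or 48.6%, against 46.1%.

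**Figure D4:**
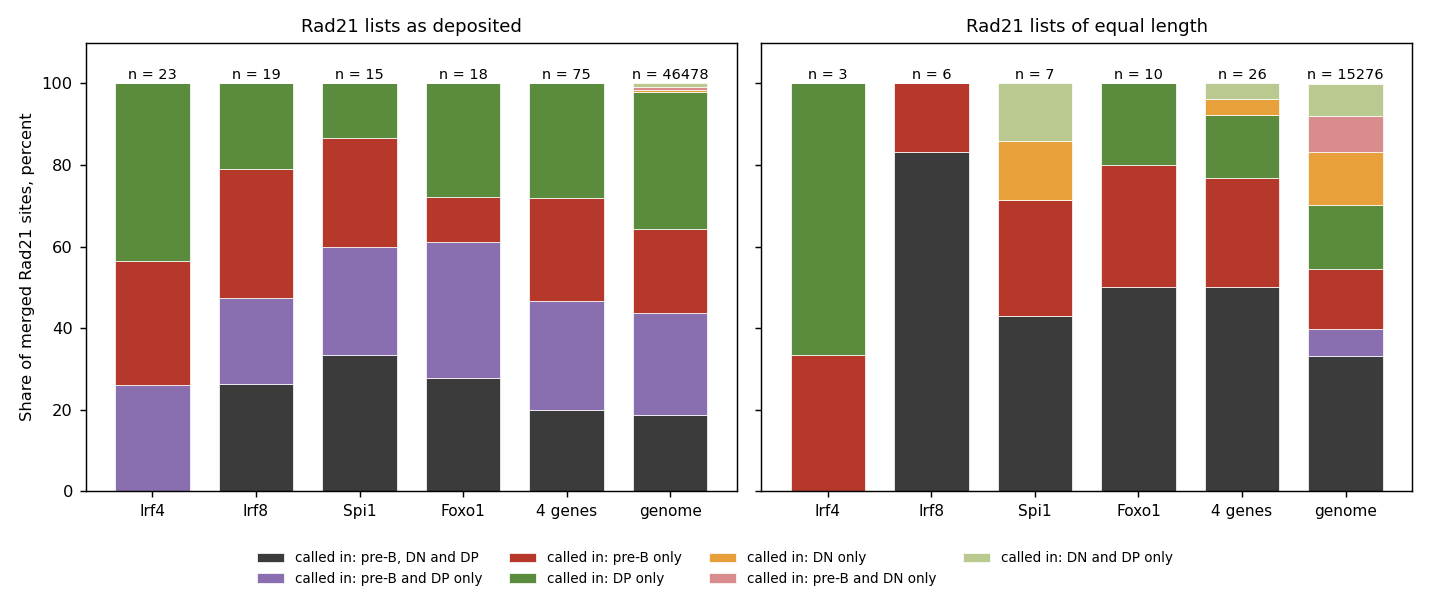
Share of merged Rad21 sites (vertical axis, percent) by the cell types in which they were called, for each gene, the 4 genes together and the genome, with the lists as deposited on the left and limited to 9701 peaks each on the right. The number of sites stands above each bar. With 100 kb flanks, Irf4 is the only one of the 4 genes without sites called in pre-B, DN and DP cells, and after limiting the lists it has 3 sites, against 6, 7 and 10 at the other genes.

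Rad21 overlapped 36 of the 48 pre-B CTCF peaks, or 75% (60.4 to 86.4), against 63.5% genome-wide. It did so at 4 of 5 at Irf4, 12 of 16 at Irf8, 9 of 12 at Spi1 and 11 of 15 at Foxo1. Of the 48, 40 overlapped a CTCF peak of IL7-cultured pro-B cells, or 83.3% (69.8 to 92.5), against 96% genome-wide. Irf4 contributed 2 of 5, and the other genes 15 of 16, 10 of 12 and 13 of 15. The pre-B CTCF peaks that the longer IL7 list lacked included those of Irf4 32.4 kb upstream and 37.3 and 53.4 kb downstream of its start. In the other direction, 41 of 79 IL7 pro-B CTCF peaks overlapped a pre-B CTCF peak, or 51.9% (40.4 to 63.3), against 58.6%.

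The CTCF consensus was found with at most 2 mismatches in 20 of the 48 pre-B CTCF peaks, or 41.7% (27.6 to 56.8), against 48.3% of all pre-B CTCF peaks. Sequence 2000 bp away matched at 6 of 48, or 12.5%, against 9.04%. At Irf4 both the peaks and the sequence 2000 bp away matched at 2 of 5, so its matches printed above were no more frequent than in neighbouring sequence. With at most 1 mismatch, 6.25% of the 48 matched, against 16.1% of the list and 1.03% of its neighbouring sequence, and with at most 3 mismatches 89.6% matched, against 91.2% and 50.1%. A 20-base matrix, made from 6774 pre-B CTCF peaks outside the 4 windows after the data had been examined, matched 24 of the 48, or 50% (35.2 to 64.8), against 60.8%. Where both searches gave a strand genome-wide, they gave the same one in 97.6% of 16501 peaks. The matrix covers the consensus and 4 bases on either side and was built from peaks of this list, so the searches are not independent. Matches to the matrix were found in 11 of 16 peaks at Irf8, 8 of 15 at Foxo1, 4 of 12 at Spi1 and 1 of 5 at Irf4. Some of the highest-ranked sites had no match to the matrix, namely those 52.5 kb before Irf8 and 11.8 and 16.7 kb before Spi1.

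The direction of sites upstream of Foxo1 depended in part on the search. By the matrix, those at 24.5, 14.3, 10.5 and 5.8 kb pointed toward the gene, and those at 43, 71.6 and 94.7 kb pointed away from it. By the consensus, which oriented 4 of these, the sites at 14.3 and 10.5 kb also pointed toward the gene, but the site at 24.5 kb pointed away and the site at 94.7 kb toward it. At the 4 genes the searches gave the same strand at 11 of 13 sites that both oriented, and both exceptions were at Foxo1. The site at 132.6 kb behind the gene pointed back toward it by both searches. By the matrix, 4 of 5 oriented sites upstream of Irf8 and 4 of 6 downstream pointed toward the gene. The matrix oriented 4 of 12 sites at Spi1 and 1 of 5 at Irf4, and the consensus 5 of 12 and 2 of 5. Among them was the intronic Spi1 site at 19.2 kb, which pointed upstream by both searches.

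The nearest oriented sites with pre-B CTCF and Rad21 on either side of a gene pointed toward each other at 25.6% of 8897 genes that had such a pair, by the consensus with at most 2 mismatches. Foxo1 had such a convergent pair, at chr3:52061388-52062141 and chr3:52201339-52201862. The second of these CTCF peaks ranked 3.32%, near the lowest score of the list, and had no match to the matrix. Foxo1 also had a convergent pair with at most 3 mismatches and with the matrix, but not the same pair. The upstream site was then chr3:52066156-52066860, and by the matrix the downstream site was chr3:52204059-52205597. The genome-wide shares for these settings were 25.7% and 27%. With at most 1 mismatch none of the 4 genes had a pair, and the genome-wide share was 23.5%. Irf8 had a convergent pair by the consensus, at chr8:123202112-123202942 and chr8:123319987-123320714, whose sequences are given above. It had none with 3 mismatches or with the matrix, since a nearer upstream site was then oriented and pointed away from the gene. The pair at Spi1 was not convergent and Irf4 had no pair.

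**Figure D5:**
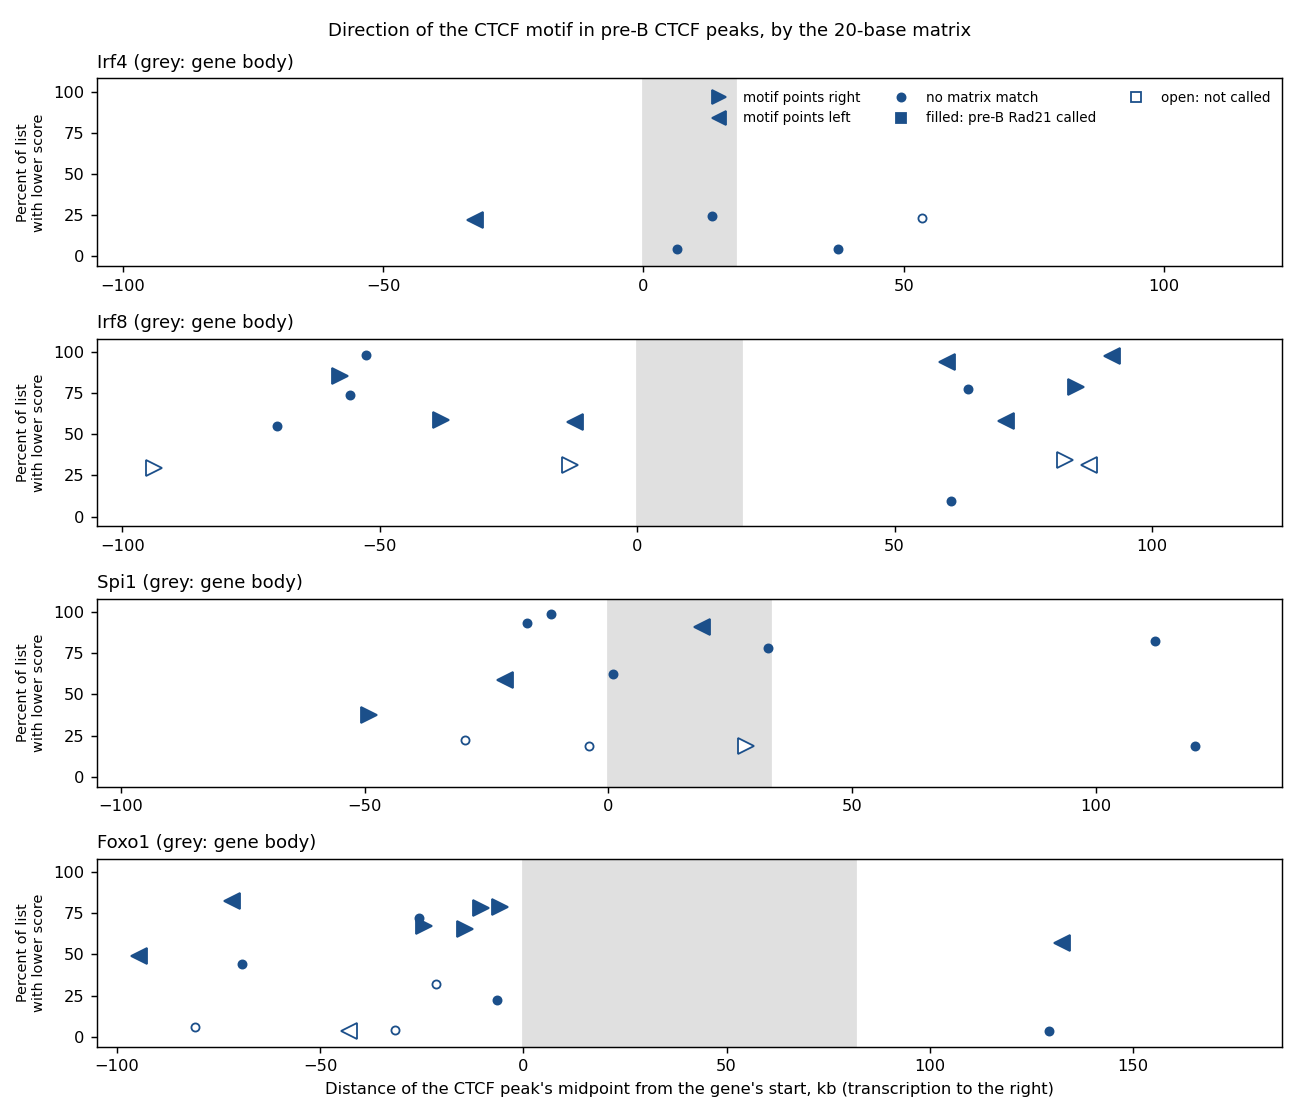
Direction of the CTCF motif in the pre-B CTCF peaks of each gene by the 20-base matrix, with the distance of the peak from the gene start in kb on the horizontal axis and its rank in the pre-B CTCF list on the vertical axis. Triangles point the way the motif points, circles have no match, and filled symbols overlap pre-B Rad21. By the matrix the 4 oriented sites closest before Foxo1 point to the right, toward the gene, although the consensus gave the opposite direction at 24.5 kb, and the site behind the gene points to the left.

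Part of the matches shared 1 short word. The commonest 12 bases at the consensus positions of all matrix matches were GCCCTCTTCTGG, present in 21.3% of 25673 matching pre-B CTCF peaks. These letters are those of the CTCF motif carried by mouse B2 and B3 SINEs, short repeats that have spread many such sites over the rodent genomes, as general background. Whether these peaks lie in such repeats was not tested. At the 4 genes, 9 of the 24 matches had this word: 5 at Irf8, 2 at Spi1, 2 at Foxo1 and 0 at Irf4. An example is shown from each of 3 genes, with capitals at the 20 bases of the matrix, to show the word in its context.
Irf8, 13.1 kb upstream, chr8:123247106-123247145, minus strand, intergenic: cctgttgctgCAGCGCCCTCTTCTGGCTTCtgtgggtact
Spi1, 49.2 kb upstream, chr2:90873324-90873363, minus strand, intergenic: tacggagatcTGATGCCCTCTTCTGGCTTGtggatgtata
Foxo1, 94.7 kb upstream, chr3:51977603-51977642, plus strand, intergenic: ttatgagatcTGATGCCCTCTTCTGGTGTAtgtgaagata

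Peaks with this word had lower ranks than the other matches and a lower share with Rad21, at the 4 genes and in the whole list. Their median rank at the 4 genes was 34.5%, against 77.9% for the 15 other matches, and genome-wide it was 33.1% against 65.3%. Pre-B Rad21 overlapped 4 of 9, or 44.4% (13.7 to 78.8), against 14 of 15 others, or 93.3% (68.1 to 99.8). The genome-wide shares were 45.7% and 73.5%. All 9 were called in IL7-cultured pro-B cells, 3 overlapped a DP Rad21 peak and 0 a DN Rad21 peak, against 96.7%, 31.6% and 7.2% of the peaks with this word genome-wide. Of the 15 other matches at the 4 genes, 14, 13 and 8 did so, or 93.3%, 86.7% and 53.3%, against 99%, 60.5% and 30.8% of other matches genome-wide.

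Short motifs of the factors themselves were searched in the middle 300 bases of Rad21 peaks, on both strands: the composite ETS-IRF element (GGAA and GAAA separated by any 2 bases), the PU box GAGGAAGT, the FOXO element GTAAACA and the E-box CAGCTG, the site of E2A proteins. Among 57 pre-B Rad21 peaks at the 4 genes, these letters were in 1, 1, 0 and 12, or 1.75%, 1.75%, 0% and 21.1%, against 3.18%, 2.96%, 3.53% and 18.4% of all pre-B Rad21 peaks. Among the 12 without a CTCF peak of either list the shares were 8.33%, 0%, 0% and 8.33%, against 6.03%, 8.44%, 3.96% and 30.9%. Among 59 DP Rad21 peaks they were 0%, 1.69%, 0% and 25.4%, against 2.91%, 3.24%, 3.44% and 20.9%. The composite element and the PU box were both at Irf4, and E-boxes were in the pre-B peaks at the enhancer position 50 kb before Irf8 and at the annotated start of Spi1. These matches are shown with capitals at the motif, the first because it was the only one of its kind and the others because their peaks are described above.
Composite ETS-IRF element, 20.9 kb before Irf4, chr13:30820229-30820262, minus strand: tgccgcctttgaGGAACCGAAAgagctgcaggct
PU box, 37.1 kb behind the start of Irf4, chr13:30878147-30878178, plus strand: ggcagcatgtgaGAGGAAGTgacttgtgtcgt
E-box, 50 kb before Irf8, chr8:123210239-123210268, plus strand: ccatggacgccgCAGCTGcctggcgttggc
E-box, 0.8 kb inside Spi1, chr2:90923293-90923322, plus strand: tggaaacaggggCAGCTGcagccagggcgg
The peak with the composite element ranked 1.44% in the pre-B list and overlapped no peak of another list. A motif match in a peak describes its sequence only.

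Relatives of the 4 genes in the IRF, PU.1 and FOXO families had between 3 and 15 pre-B Rad21 peaks. Over 11 of them the median was 11 pre-B CTCF, 15 IL7 pro-B CTCF, 8 pre-B Rad21, 2 DN Rad21 and 10 DP Rad21 peaks. Spib, the gene of Spi-B, was highest for pre-B Rad21 with 15 and had 8 DP Rad21 peaks. Over 7 other regulators of pre-B cells (Ebf1, Pax5, Tcf3, Ikzf1, Ikzf3, Rag1 and Rag2) the medians were 14, 19, 13, 3 and 26, and the windows of Rag1 and Rag2 overlap. Pax5, which fixes B lineage identity, was like Irf4 in having 13 pre-B Rad21 and 0 DN peaks but had 1 DP peak, against 17 at Irf4.

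The genes most like each member were found by the Euclidean distance between their ranks among all genes in the 5 lists, at least 1 Mb away. Nearest to Irf4 were Il15ra, Wdfy2 and Entpd5, at distances of 16.3, 18.7 and 26.4. Nearest to Irf8 were Aplp1, Tyrobp and Ccdc130 (3.79, 3.98 and 4.74), nearest to Spi1 were Efcab15, Get4 and Gm11696 (5.57, 6.47 and 6.63), and nearest to Foxo1 were Uggt1, Scn4a and Cabp2 (1.61, 4.23 and 4.42). Irf4 was matched least closely of the 4, and Il15ra had 6, 12, 10, 0 and 13 peaks in the order of lists above.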

How the data were processed

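ChIP-seq peaks of 5 libraries, 1 for each antibody and cell type, were used. Adapters and duplicates were discarded by the authors, who mapped with Bowtie to mm9 (release 0.12.9 in the submitters' processing notes, a later one in the methods), allowed at most 3 placements for each read, and ran MACS 1.4.2 against matched inputs. The deposited files give the position and score of each peak, where the score comes from the peak's p-value and grows with depth. Read depth is unknown.

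Peaks were counted with Python 3.11.15, pysam 0.24.0, numpy 2.4.6 and scipy 1.17.1, against GENCODE gene models of the mm9 build (models over 3 Mb were not used to annotate peaks). Overlaps of 1 bp counted. Sites are overlapping peaks merged over lists. With 1 library a group no test was made. The members, lists and enhancer positions were chosen with earlier results of these data known. Enhancer positions are general knowledge and approximate. Named were the members, their families, 7 other pre-B regulators, genes at described peaks, 3 like genes a member, and peaks at promoters, bodies, enhancers and the flank sites strongest or called in 1 cell type. Alternatives were scores of at least 100, lists of equal length, 50 and 200 kb flanks, midpoints, 50% overlap and 1 or 3 mismatches. The CTCF matrix, set so that 5% of neighbouring sequences pass, the shared word, the other motifs and the CCDS start were added after the data had been examined. The scripts were tested on simulated peaks. The input libraries were not analysed here, and 1 gene of the family list is not reported here.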

Additional observations from a re-analysis of the deposited data

How the results depend on the processing

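All lists come from 1 library each, so no spread between animals is known, and read depth is unknown. No paired analysis was possible because each antibody and cell type has 1 library. With 50 kb flanks the 4 windows held 31 pre-B CTCF, 46 IL7 pro-B CTCF and 35 DP Rad21 peaks, and with 200 kb flanks 81, 134 and 94, with 97 for pre-B Rad21. For equal lengths the CTCF lists were limited to 42250 peaks and the Rad21 lists to 9701. The windows then held 43 IL7 pro-B CTCF, 20 pre-B Rad21 and 18 DP Rad21 peaks, and with scores of at least 100 there were 39 DP Rad21 peaks. Of the 20 counts by gene and list, 3, 11, 10, 11 and 0 moved by over 1.5 times with scores of at least 100, equal lengths, 50 kb, 200 kb and midpoints. With equal lengths the share of Rad21 sites called in all 3 cell types was 50%, and the share of pre-B Rad21 peaks at Irf4 that overlap pre-B CTCF, for which both lists were limited to the length of the shorter, was 0%. That limit removed every pre-B CTCF peak of Irf4, so the 0% follows from it and says nothing about overlap. The share at Irf4 was between 10% and 50% under the other alternatives, which were added after the data had been examined, as were the matrix, the pairs at other mismatch limits and the CCDS start. The CTCF consensus was found in 6.25% of the 48 pre-B CTCF peaks with at most 1 mismatch and in 89.6% with at most 3, where neighbouring sequence matched at 50.1% genome-wide. With at most 1 mismatch no gene had a pair of oriented sites, and with at most 3 the pair at Irf4 was not convergent. By the matrix Spi1 had no pair.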
